A study of Sus scrofa with 13 samples.

Results

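The genes described here are those that remove calcium from the heart muscle cell and set the pace of that removal: ATP2A2, PLN, SLN, SLC8A1, CAMK2D and PPP1R1A. They were taken by gene symbol from the annotation of a porcine Affymetrix array, with every probe set of each gene. This gave 10 of the 24123 probe sets in the table: 4 for ATP2A2, 2 for PLN and 1 for each of the other 4 genes. RNA came from drill biopsies of heart muscle of 13 female Sinclair miniswine, 1 array per animal, taken at month 4 of follow-up. At 3 months of age each pig had been given an infarct by tying off, for good, the first and second diagonal branches of its left anterior descending coronary. At 5 sites in the border zone of the infarct, 7 pigs then received 50000000 stem cells in all, in 2 ml saline, and 6 pigs 2 ml saline alone. The labels also call the cells MPCs and give neither their donor nor how many were left at biopsy, and the position of each biopsy relative to the scar is not stated. No uninfarcted animal was among the arrays, so every value is from an infarcted heart.

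Each heartbeat is ended by pumping calcium out of the cytosol. SERCA2, the ATPase encoded by ATP2A2, returns most of it to the sarcoplasmic reticulum, and the sodium-calcium exchanger encoded by SLC8A1 carries the rest across the cell membrane. The small membrane proteins phospholamban (PLN) and sarcolipin (SLN) bind SERCA2 and hold it back. Phosphorylation of phospholamban, by protein kinase A or by the calmodulin-dependent kinase whose main cardiac subunit is CAMK2D, lifts this brake. Protein phosphatase 1 removes the phosphate, and PPP1R1A encodes inhibitor-1, which blocks that phosphatase when protein kinase A has phosphorylated it. In failing hearts SERCA2 is known to be low relative to phospholamban.

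The arrays held heart muscle by their markers. All 8 measured cardiomyocyte markers of 10 listed passed the filter on dim probe sets, with a mean log2 intensity of 14.19 to 14.38 in the saline group and 14.22 to 14.44 in the stem cell group. Of the skeletal muscle list, 5 of 8 markers were on the array and 4 of them, ATP2A1, MYH2, TNNT3 and MYLPF, lay under the filter. Fibroblast and matrix markers, 8 of 11 measured, had means of 7.51 to 9.18 after saline and 7.56 to 9.10 after stem cells. Among them COL1A2 and COL3A1 lay near the filter at 3.36, with mean log2 intensities of 3.69 and 3.67, while DCN was at 13.19. This mean therefore joins very dim and very bright probe sets. The means were 9.36 to 10.50 and 8.25 to 9.98 for smooth muscle (5 of 7 markers) and 9.24 to 9.79 and 8.76 to 9.73 for endothelium (5 of 7). The endothelial marker KDR was on the array but lay under the filter, at a mean log2 intensity of 2.73. For macrophages the means were 6.32 to 7.30 and 5.74 to 6.88 (6 of 8). For fat they were 11.59 to 12.62 and 11.82 to 12.75, on LPL and FABP4 alone (2 of 6). LEP and ADIPOQ lay under the filter, at mean log2 intensities of 2.85 and 2.70, so the fat mean does not by itself show fat cells. Arrays correlated pairwise at 0.936 to 0.986. In bulk tissue a smaller number of muscle cells and less RNA in each of them cannot be told apart.

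Among these genes, CAMK2D and SLC8A1 had the largest positive differences relative to their errors after stem cells, at 1.29-fold and 2.23-fold. On their brightest probe sets the pump ATP2A2 stood at 1.1-fold and phospholamban at 1.16-fold. PPP1R1A had a negative difference, at 0.702-fold, and sarcolipin ranged 12.5-fold between animals with no clear order of the groups. No difference passed the threshold on adjusted p. Of the 9 member probe sets tested, 0 had an adjusted p under 0.05 (limma with Benjamini-Hochberg adjustment over 14399 probe sets), as did 0% of all probe sets tested, where the smallest adjusted p was 0.393. At an unadjusted p under 0.05, 2 of the 9 were higher and 0 lower after stem cells, against 5.4% and 5.15% of all probe sets tested, or 1519 in total. The median log2 difference of the 9, stem cells minus saline as everywhere below, was 0.21 beside 0.02 over all probe sets. Of the 9, 7 were positive and 2 negative, where 47.2% of all probe sets tested were negative. The 7 include every tested probe set of ATP2A2 and of PLN, so they are not separate genes. SLN and PPP1R1A were the negative members. In 0 of the 9 were the groups free of overlap, against 0.278% of all probe sets.

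**Figure D1:**
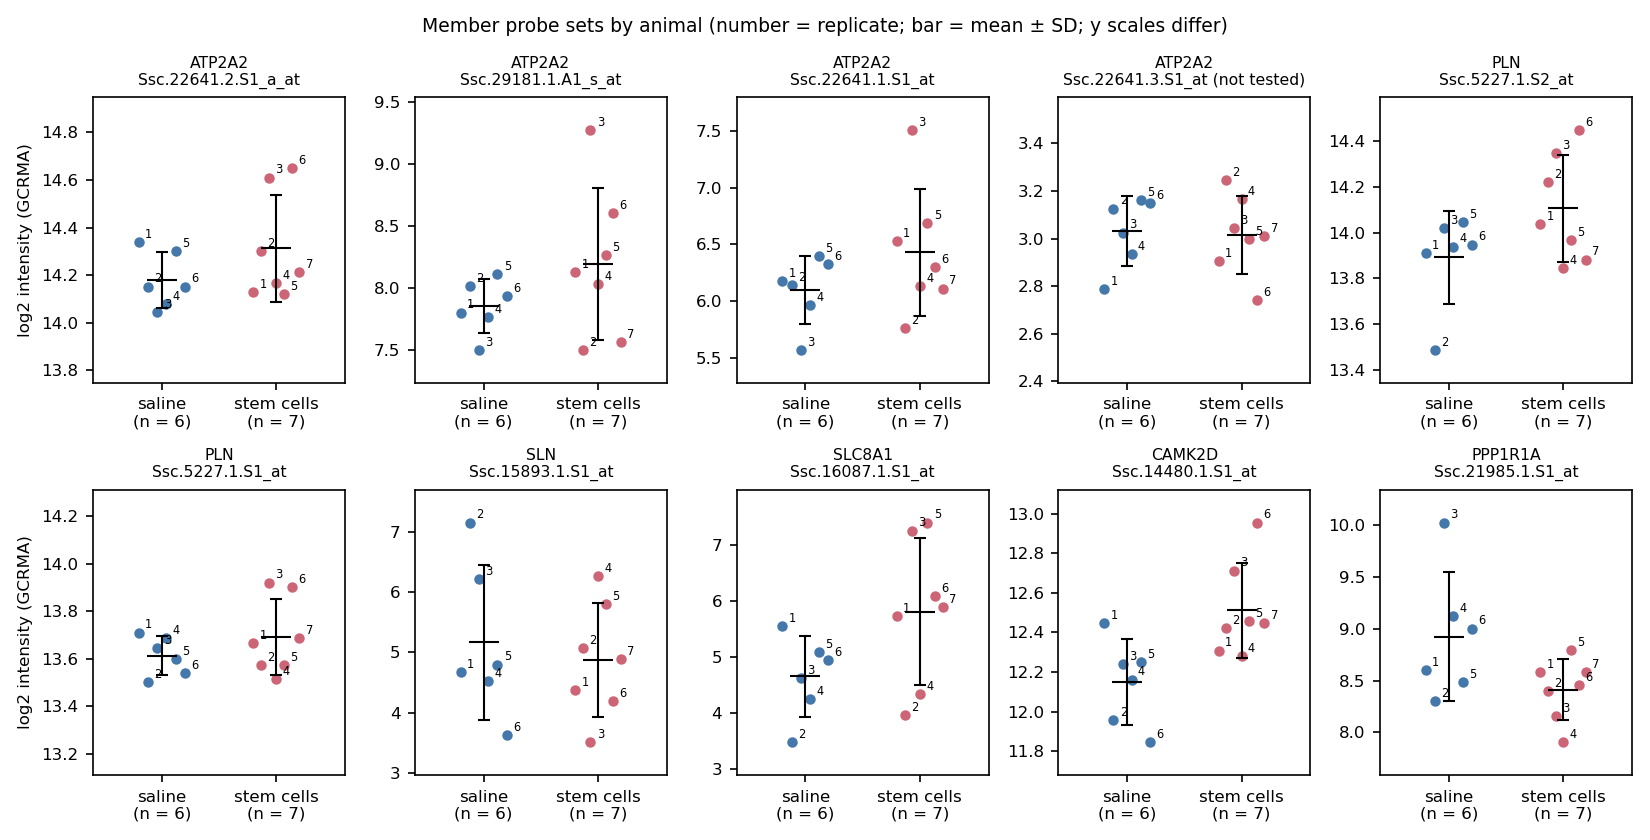
Log2 intensity of the 10 member probe sets in each animal, with the saline group (n = 6) in blue and the stem cell group (n = 7) in red. Points are animals marked by replicate number, bars give the mean ± SD, and the vertical scales differ between panels. The groups overlap in every panel, and stem cells replicates 3 and 6 are the highest animals for ATP2A2, PLN and CAMK2D on their brightest probe sets.

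ATP2A2, the calcium pump itself, was read by 4 probe sets of very unequal brightness. Probe sets bind with their own strength, so each is compared only with itself between animals. The brightest, Ssc.22641.2.S1_a_at, had the 44th highest mean signal of the array. Its intensity was 16900 at the lowest, 18200 at the median and 20700 at the highest among saline animals. After stem cells these values were 17800, 19000 and 25700. Stem cells replicates 3 and 6, at 25000 and 25700, were above all saline animals, and the other 5 lay within the saline range. The saline group had a mean log2 intensity of 14.18 ± 0.12 (SD, n = 6) and the stem cell group one of 14.31 ± 0.23 (SD, n = 7). The difference was 0.14 ± 0.10 (log2, SE), a 1.1-fold ratio with a 95% interval of 0.948 to 1.27 and an adjusted p of 0.629 (limma). Without stem cells replicate 6 the difference was 0.08, and without stem cells replicate 3 it was 0.09.

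The 2 dimmer ATP2A2 probe sets spread further, and did so together. Ssc.29181.1.A1_s_at ran from 181 over a median of 234 to 276 after saline and from 181 over 279 to 618 after stem cells. Ssc.22641.1.S1_at ran from 47.5 over 71.4 to 84.5 after saline and from 54.4 over 78.7 to 182 after stem cells. Stem cells replicate 3 was the highest animal on both. Their differences were 0.34 ± 0.25 and 0.34 ± 0.25 (log2, SE; adjusted p of 0.629 and 0.628, limma), and without that animal 0.16 each. Over the 13 animals these 2 probe sets correlated at r = 0.90 (rho = 0.878; permutation p of 0.00019, adjusted 0.00361 over 19 pairs), and at 0.885 without the 2 animals farthest from the median. With the brightest set they correlated at 0.696 and 0.52, and at -0.0824 and 0.0843 without stem cells replicates 3 and 6, so these relations rested on those animals. The fourth probe set, Ssc.22641.3.S1_at, had an intensity of 6.69 to 9.48 over all animals, under the filter, and was not tested. Its mean log2 intensity was 3.03 ± 0.15 (SD, n = 6) in the saline group and 3.02 ± 0.16 (SD, n = 7) in the stem cell group.

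Phospholamban, the brake on the pump, had 2 bright probe sets. On Ssc.5227.1.S2_at the lowest, median and highest intensities were 11500, 15750 and 16900 after saline and 14700, 16800 and 22300 after stem cells. Saline replicate 2 lay far below the other 5 saline animals, which ran from 15400 to 16900, and stem cells replicates 2, 3 and 6 lay above all saline animals. The difference was 0.21 ± 0.12 (log2, SE; adjusted p of 0.532, limma), a 1.16-fold ratio with a 95% interval of 0.978 to 1.38. Without saline replicate 2 it was 0.13. On the second probe set, Ssc.5227.1.S1_at, the same values were 11600, 12600 and 13400 after saline and 11700, 13000 and 15500 after stem cells. Here saline replicate 2, although the lowest, stood only just below saline replicate 6 at 11900. The difference was 0.08 ± 0.082 (log2, SE; adjusted p of 0.743, limma), and 0.04 without either stem cells replicate 3 or stem cells replicate 6. The probe sets correlated at 0.737 (rho = 0.479; permutation p of 0.0042, adjusted 0.0201), and at 0.554 without stem cells replicate 6 and saline replicate 2.

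The ratio of pump to brake signal was then taken within each animal. The log2 ratio of the brightest ATP2A2 to the brightest PLN probe set ran from 0.03 over a median of 0.23 to 0.66 after saline and from 0.08 over 0.20 to 0.33 after stem cells. The whole stem cell range lay inside the saline range. Its group means were 0.21 ± 0.10 (SD, n = 7) and 0.29 ± 0.23 (SD, n = 6), a difference of -0.08, and of -0.00342 without saline replicate 2. With the other PLN probe set the difference was 0.06, and with the mean of all tested probe sets of both genes 0.12, so its sign was not fixed. This ratio was described and not tested.

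Sarcolipin is the second inhibitor of SERCA2 and in large mammals mainly a protein of the atria and of skeletal muscle. It had the largest residual SD of the members, 1.11 on the log2 scale, with SLC8A1 close at 1.09. The sarcolipin value was above that of 98.4% of the probe sets tested. Over all animals SLC8A1 ranged further, 15.2-fold against 12.5-fold. The sarcolipin probe set is dim, with a mean log2 intensity of 5.00 where the filter lies at 3.36. The intensity was 12.3 at the lowest, 26.65 at the median and 142 at the highest after saline, and 11.4, 29.5 and 76.7 after stem cells. Saline replicates 2 and 3 (142 and 74) and stem cells replicates 4 and 5 (76.7 and 55.6) were the high animals in their groups. The difference was -0.29 ± 0.54 (log2, SE; adjusted p of 0.863, limma), with a 95% interval from -1.43 to 0.85. It turned to 0.10 without saline replicate 2. Saline replicate 2 and stem cells replicate 4 also had the highest fibroblast and matrix marker means of their groups, 9.18 and 9.10, and the highest means of the 5 atrial markers above the filter (of 8 listed), 9.22 and 8.87. The brightest of those 5 were PAM and NPPA, at mean log2 intensities of 11.98 and 11.02. KCNJ3 lay under the filter, at 2.72, and MYL7 and KCNA5 were not on the array. The atrial mean does not by itself show atrial tissue. The summed intensity of the fibroblast and matrix markers ran from 11302 to 34747 after saline and from 11732.5 to 34105 after stem cells. Over the 13 animals sarcolipin correlated with the fibroblast and matrix marker mean at r = 0.683 (rho = 0.571; permutation p of 0.0105, adjusted 0.0473 over 27 relations), and at 0.346 without those 2 animals, so the relation rested on them. By rho the adjusted permutation p of this relation was 0.136. With the fibroblast and matrix mean subtracted from the cardiomyocyte mean as a covariate for tissue makeup, the sarcolipin difference was -0.36 ± 0.38 (log2, SE). With the ratio of 3' to 5' control probe sets, a measure of RNA integrity described next, sarcolipin correlated at 0.45 (rho = 0.511; permutation p of 0.124, adjusted 0.239 over 27 relations), and at 0.885 without stem cells replicates 2 and 5. Within groups this was 0.982 among saline animals and 0.113 among stem cell animals. With that ratio as a covariate the sarcolipin difference was -0.16 ± 0.50 (log2, SE).

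SLC8A1, the exchanger of the cell membrane, had the largest difference of the members on the log2 scale. Its probe set carries this symbol in the array annotation under a gene ID that the pig gene table used here does not hold; the table lists SLC8A1 under another ID, so the probe set's identity rests on the annotation alone. Its intensity was 11.2 at the lowest, 27.75 at the median and 47.1 at the highest after saline, and 15.6, 59.5 and 170 after stem cells. Of 7 stem cell animals 5 lay above all saline animals, while stem cells replicates 2 and 4, at 15.6 and 20.2, lay among the lower saline values. The log2 means were 5.81 ± 1.31 (SD, n = 7) and 4.66 ± 0.72 (SD, n = 6). The difference was 1.16 ± 0.52 (log2, SE), a 2.23-fold ratio with a 95% interval of 1.03 to 4.83, at an unadjusted p of 0.0435 and an adjusted p of 0.458 (limma). An unadjusted p under 0.05 was kept in 4 of 13 fits with 1 animal left out, and the difference ran from 0.89 without stem cells replicate 5 to 1.46 without stem cells replicate 2. The probe set is dim, with a mean log2 intensity of 5.28 where the filter lies at 3.36.

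The SLC8A1 signal also followed this measure. The log2 ratio of 3' to 5' control probe sets, averaged over actin, EF1A and GAPDH after centring, rises as RNA is degraded or copied short. It ran from -0.34 to 0.57 after saline and from -0.69 to 0.92 after stem cells. SLC8A1 correlated with it at r = -0.801 (rho = -0.802; permutation p of 0.00099, adjusted 0.017 over 27 relations), at -0.738 without stem cells replicates 2 and 5, and at -0.684 and -0.898 within the saline and stem cell groups. The 2 animals with the highest ratio, stem cells replicate 2 and saline replicate 2, had the 2 lowest SLC8A1 values. With the ratio as a covariate the group difference was 0.90 ± 0.30 (log2, SE; unadjusted p of 0.00981, adjusted 0.276, limma). The dimmest tested ATP2A2 probe set had a correlation of -0.613 with the same ratio (rho = -0.648; permutation p of 0.0305, adjusted 0.075), and the brightest ATP2A2 probe set one of -0.122 (rho = -0.165; permutation p of 0.69, adjusted 0.776).

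**Figure D2:**
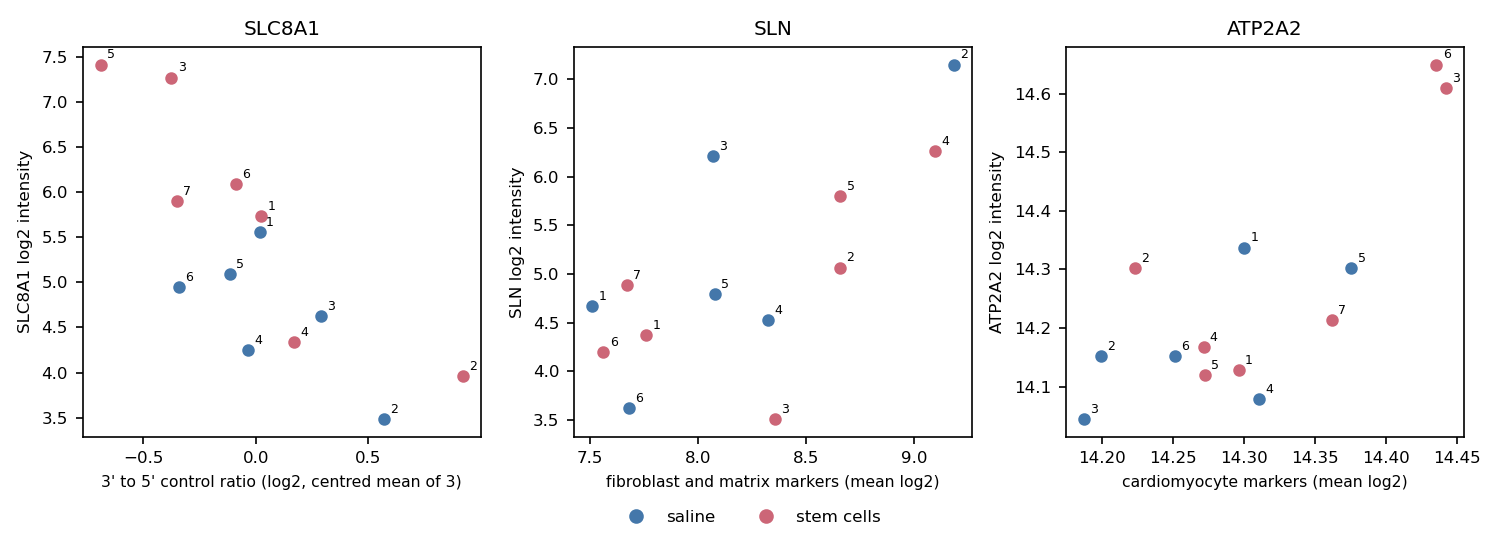
Each point is an animal (blue saline, red stem cells, number for the replicate), with the log2 intensity of SLC8A1, SLN or the brightest ATP2A2 probe set on the vertical axis and an array measure on the horizontal axis. SLC8A1 runs inversely to the 3' to 5' control ratio (r = -0.801), SLN runs with the fibroblast and matrix marker mean (r = 0.683), and ATP2A2 is highest in the 2 animals with the highest cardiomyocyte marker mean.

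CAMK2D, the cardiac subunit of the calmodulin-dependent kinase that phosphorylates phospholamban, had the smallest p of the members. Its intensity was 3680 at the lowest, 4705 at the median and 5580 at the highest after saline, and 4970, 5580 and 7940 after stem cells. All 7 stem cell animals were above the saline mean, and 5 of 6 saline animals were below every stem cell animal; saline replicate 1, at 5580, was the exception. The log2 means were 12.51 ± 0.24 (SD, n = 7) and 12.15 ± 0.22 (SD, n = 6). The difference was 0.36 ± 0.13 (log2, SE), a 1.29-fold ratio with a 95% interval of 1.06 to 1.55, at an unadjusted p of 0.0123 and an adjusted p of 0.42 (limma). The unadjusted p was under 0.05 in 13 of 13 fits with 1 animal left out, with differences from 0.29 without stem cells replicate 6 to 0.42 without saline replicate 1. With tissue makeup as a covariate the difference was 0.37 ± 0.12 (log2, SE), and with the 3' to 5' ratio 0.35 ± 0.13. The tissue makeup covariate varied mostly with the fibroblast and matrix mean. That mean had an SD of 0.59 in each group, against 0.07 after saline and 0.09 after stem cells for the cardiomyocyte mean. CAMK2D correlated with the fibroblast and matrix mean at r = -0.2685 (adjusted permutation p of 0.501). The fit therefore adjusts little for muscle content, whose part in the difference was not tested. CAMK2D correlated with the cardiomyocyte marker mean at r = 0.703 (permutation p of 0.00685, adjusted 0.0436 over 27 relations). By rank this was rho = 0.60 (adjusted permutation p of 0.115). Without stem cells replicates 3 and 6, which were the highest animals for CAMK2D, r was 0.354.

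PPP1R1A, which encodes inhibitor-1, went the other way. Its intensity was 316 at the lowest, 450 at the median and 1040 at the highest after saline, and 240, 352 and 443 after stem cells. Saline replicate 3, at 1040, was the high animal; on the log2 scale the mean of the saline animals exceeded all 7 stem cell values, but 5 of these lay within the saline range. The difference was -0.51 ± 0.25 (log2, SE), a 0.702-fold ratio with a 95% interval of 0.487 to 1.01, at an unadjusted p of 0.0562 and an adjusted p of 0.484 (limma). Without saline replicate 3 it was -0.29, and without saline replicate 2 it was -0.63.

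**Figure D3:**
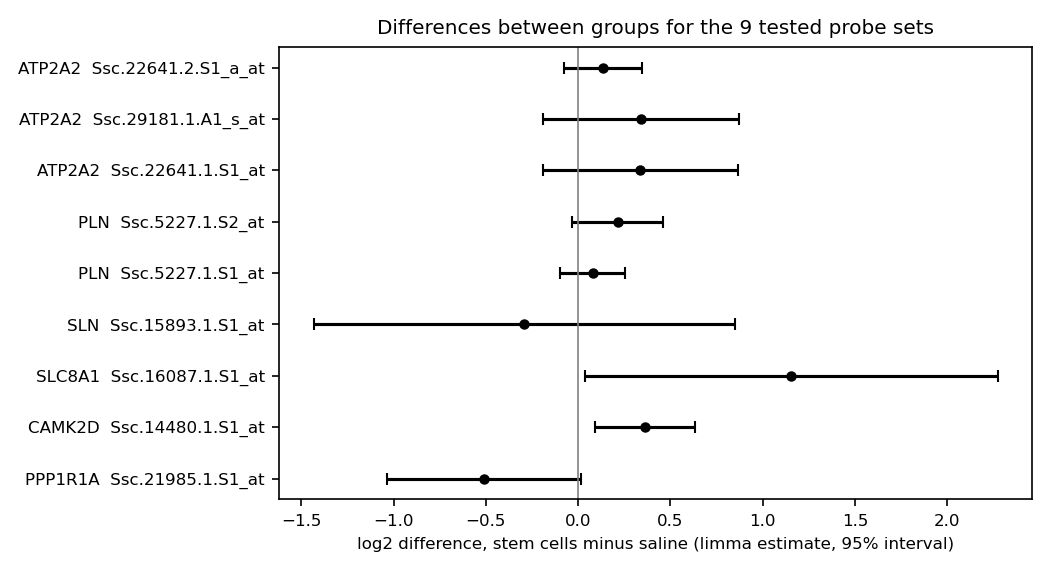
Log2 difference between stem cell and saline animals for the 9 tested member probe sets, with points for the limma estimate and bars for the 95% interval. The intervals of CAMK2D (0.09 to 0.63) and SLC8A1 (0.04 to 2.27) lie above 0 before adjustment for the number of probe sets, and those of SLN and SLC8A1 are the widest.

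Correlations over the 13 animals were then compared between members. Of 19 pairs of probe sets, 8 had an adjusted permutation p under 0.05 by Pearson's r. Of these 8, 3 were pairs within ATP2A2 or within PLN, given above. By rho the adjusted permutation p was 0.00266 for the 2 dimmer ATP2A2 probe sets and 0.0333 for SLC8A1 with CAMK2D. It was 0.325 for ATP2A2 with PLN and 0.1475 for ATP2A2 with CAMK2D. For PLN it was 0.235 with CAMK2D and 0.193 with SLN. Within genes it was 0.377 for the brightest ATP2A2 set with Ssc.29181.1.A1_s_at and 0.235 for the 2 PLN sets. The brightest ATP2A2 probe set correlated with PLN at r = 0.711 (rho = 0.391; permutation p of 0.0064, adjusted 0.0243) and with CAMK2D at r = 0.781 (rho = 0.604; permutation p of 0.00183, adjusted 0.0174). Without stem cells replicates 3 and 6 these were 0.216 and 0.372, so both relations rested on those animals. The dimmer ATP2A2 probe sets did not pass with either gene: Ssc.29181.1.A1_s_at was at 0.473 with PLN and 0.514 with CAMK2D (adjusted permutation p of 0.153 each over 17 pairs added after seeing the data), and Ssc.22641.1.S1_at at 0.327 and 0.361 (adjusted permutation p of 0.279 and 0.248). PLN correlated with CAMK2D at r = 0.758 (rho = 0.481; permutation p of 0.00424, adjusted 0.0201) and inversely with SLN at r = -0.664 (rho = -0.555; permutation p of 0.0126, adjusted 0.0341). Without stem cells replicate 6 and saline replicate 2 these were 0.495 and -0.415. SLC8A1 correlated with CAMK2D at r = 0.634 (rho = 0.765; permutation p of 0.0193, adjusted 0.0459), and at 0.605 without stem cells replicates 3 and 5. For this pair r was 0.563 within the saline group and 0.45 within the stem cell group. All permutations ran over the 13 animals without regard to group. A group difference in both genes, as in SLC8A1 and CAMK2D, therefore enters r and its p. Within the groups, ATP2A2 and PLN were at r = 0.079 among 6 saline animals and 0.898 among 7 stem cell animals; the difference between groups was not tested. Stem cells replicates 3 and 6 also had the 2 highest cardiomyocyte marker means, 14.44 each, and that mean correlated with the brightest ATP2A2 probe set at r = 0.776 (rho = 0.601; permutation p of 0.00189, adjusted 0.017 over 27 relations) and at 0.394 without them. It also correlated with the PLN probe set Ssc.5227.1.S1_at at r = 0.798 (rho = 0.76; permutation p of 0.0013, adjusted 0.017), and at 0.474 without them. By rho the adjusted permutation p with that mean was 0.115 for the brightest ATP2A2 probe set and 0.0533 for Ssc.5227.1.S1_at. The part of muscle content in these relations was not tested.

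**Figure D4:**
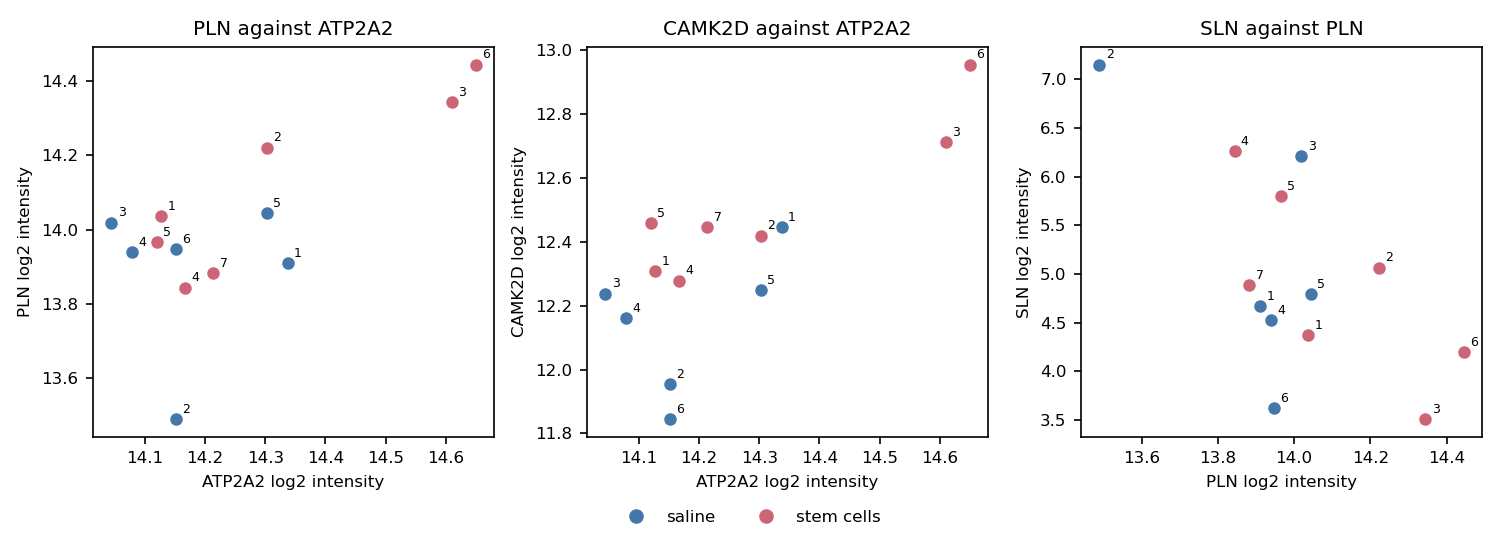
Log2 intensity of PLN and CAMK2D against ATP2A2, and of SLN against PLN, on the brightest probe set of each gene, 1 point per animal (blue saline, red stem cells, number for the replicate). Stem cells replicates 3 and 6 lie apart at the upper right of the first 2 panels, and saline replicate 2 at the upper left of the last.

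The genes whose pattern over the 13 arrays was most like each member's, after each group mean was taken out, came from different settings. For ATP2A2 they were ATP5B and ATP5A1, subunits of mitochondrial ATP synthase, PFKM, the muscle phosphofructokinase, and ACTN2, the actinin of the Z-disc, with r from 0.915 to 0.937 among 5195 genes compared. For PLN they were CCNG1, RMND5A, TMLHE and TAX1BP1 (0.872 to 0.930). For SLN they were PTGDS, which makes prostaglandin D, FNBP1L, GNG11 and BEX3 (0.898 to 0.936). For SLC8A1 they were TMEM38A, a cation channel of the sarcoplasmic reticulum, CLASP1, AKAP8L and MYD88 (0.916 to 0.965). For CAMK2D they were ATP5J, another ATP synthase subunit, LPL, IDH3A and FHOD3 (0.875 to 0.891), and for PPP1R1A they were MSRB2, APIP, NDUFC1 and AP3S2 (0.838 to 0.880). These are descriptions, the highest of many correlations, and the arrays share tissue makeup and RNA quality.

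Around these 6 genes, 84 symbols of calcium removal and its control had been listed in 5 groups, and 37 genes were measured above the filter. At an unadjusted p under 0.05, 0 of the 37 were higher and 4 lower, against 2.91% and 8.95% of all 5196 genes tested, and 0 passed when adjusted. Their median log2 difference was -0.02 beside -0.05 over all genes tested, with 20 of the 37 negative beside 59.4% of all genes.

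Among proteins that bind SERCA2 or act on it in the reticulum, 6 of 13 listed genes were tested, 4 with a negative difference and 2 with an unadjusted p under 0.05, both lower (median of -0.35, and -0.23 without stem cells replicate 6). Of all 5196 genes tested, 8.95% were lower at that p and 59.4% were negative, which are the shares to set beside each list. This list, like the others, was chosen with earlier results of these data known. HRC, the histidine-rich calcium-binding protein of the reticulum, which binds SERCA2, had a log2 intensity of 7.33 at the lowest, 7.70 at the median and 7.92 at the highest after saline and 5.79, 6.39 and 7.10 after stem cells. Its groups did not overlap, as was the case for 0.278% of all probe sets tested. The HRC difference was -1.23 ± 0.22 (log2, SE; unadjusted p of 4.98e-05, adjusted 0.393, limma). S100A1, a calcium sensor that stimulates SERCA2, was at -0.68 ± 0.30 (unadjusted p of 0.0381, adjusted 0.455), with overlapping groups. The micropeptides MRLN and STRIT1, also in this list, were not measured here.

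Among the kinases, calmodulins and cyclic AMP genes that act on phospholamban, 15 of 25 listed genes were tested, 8 higher and 7 lower, with a median of 0.04 that was negative in 7 of 13 fits with 1 animal left out. CALM3, one of the calmodulin genes, had the only unadjusted p under 0.05, at -0.88 ± 0.26 (log2, SE; unadjusted p of 0.00441, adjusted 0.393, limma) on its brightest probe set. Its 4 tested probe sets did not run one way: 2 were negative and 2 positive. Of the other calmodulin-dependent kinase subunits, CAMK2B was at -0.33 ± 0.18 and CAMK2G at -0.05 ± 0.19 on its brighter probe set; of the 2 CAMK2G probe sets 1 was negative and 1 positive, and CAMK2A was not tested. The catalytic subunits of protein kinase A were at 0.32 ± 0.19 for PRKACB and -0.32 ± 0.19 for PRKACA (log2, SE).

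Among phosphatases, 11 of 17 listed genes were tested, 6 higher and 5 lower, with a median of 0.09, and of 0.04 without saline replicate 1. The catalytic subunits of protein phosphatase 1, the target of inhibitor-1, were at 0.16 ± 0.12 for PPP1CB, 0.18 ± 0.13 for PPP1CC and -0.02 ± 0.21 for PPP1CA (log2, SE). HSPB6, a small heat shock protein that also restrains this phosphatase near phospholamban, had the only unadjusted p under 0.05, at -0.83 ± 0.26 (unadjusted p of 0.00587, adjusted 0.396, limma), and -0.19 ± 0.42 on its dimmer probe set.

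Of the other calcium pumps and exchangers 2 of 11 listed genes were tested: ATP2B1, a pump of the cell membrane, at -0.20 ± 0.27, and ATP2C1, a pump of the Golgi, at 0.03 ± 0.13 (log2, SE). Of the mitochondrial calcium genes 3 of 18 listed symbols were tested, all negative, with MCUR1 at -0.52 ± 0.31, MCUB at -0.24 ± 0.19 and LETM1 at -0.07 ± 0.11. Of all genes tested 59.4% were negative. MCUB and LETM1 lay near the filter at 3.36, with log2 means of 3.59 and 3.50 after saline and 3.35 and 3.43 after stem cells. None of these 5 pump and mitochondrial genes had an unadjusted p under 0.05.

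**Figure D5:**
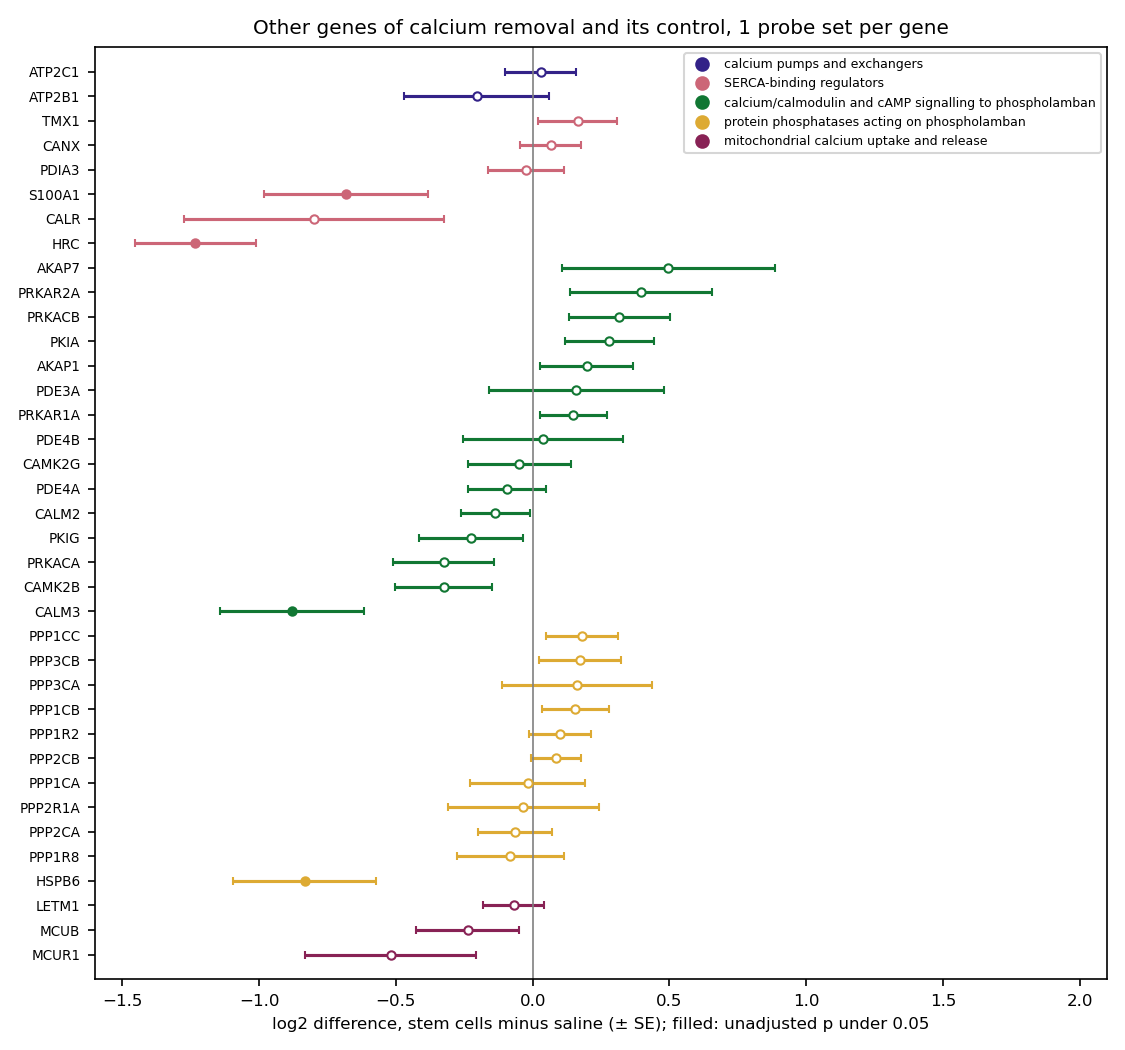
Log2 difference between stem cell and saline animals for the 37 tested genes around the 6 members, 1 probe set per gene, coloured by list, with bars for the SE. Filled points mark the 4 genes with an unadjusted p under 0.05, HRC, S100A1, CALM3 and HSPB6, all below 0.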

How the data were processed

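The intensities the authors deposited are linear GCRMA values, 1 per probe set and array, per the submitters' processing notes (version not given in the sources used here). GCRMA subtracts background and brings the arrays to a common distribution, which hides any shift common to most genes. Symbols came from the platform annotation; 9 of the 10 member probe sets matched a pig gene table (Sscrofa11.1, names only) by gene ID with 0 symbols changed, and SLC8A1, listed there under another ID, kept the annotation's name. The members and lists were chosen with earlier results of these data known.

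Intensities were put on the log2 scale. Control probe sets were left out, and 14399 probe sets with a mean above the 40th percentile were tested, 9 of the 10 member probe sets among them. The groups were compared with limma 3.58.1 (lmFit, eBayes with trend) in R 4.3.3, two-sided, with Benjamini-Hochberg adjustment at 0.05, after a check of the fit on simulated data. The precision is limited by 13 arrays. Correlations over animals used a two-sided permutation test with 100000 resamples that did not regard the groups. Its p was adjusted over 19 pairs of members and, for relations with array measures chosen after seeing the data, over 27. A permutation p is that of Pearson's r unless rho is named for it. No batch or date is given in the labels. Named genes were all member probe sets, genes of each list with an unadjusted p under 0.05 or else the 2 smallest p, and for each member the 4 genes with the highest correlation within groups; CAMK2B, CAMK2G, PRKACA, PRKACB, PPP1CA, PPP1CB, PPP1CC and LETM1 were named after their values were seen, for their roles. In the lists, the probe set with the highest mean stood for its gene. Alternatives were other filters, normalizations, variance models, covariates, a replicate block and leaving out each animal.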

Additional observations from a re-analysis of the deposited data

Results flagged for a closer look

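In 20 groups of values, 10 member probe sets in each treatment group, 1 held an animal apart from the rest by Dixon's criterion. On the PLN probe set Ssc.5227.1.S2_at, saline replicate 2 was the lowest of 6, with a gap of 0.759 of the whole range to the next animal, past the 95% critical value. Chance flags about 1 in 20 such groups. On the other PLN probe set the same animal was also the lowest of its group, by a smaller gap.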

How the results depend on the processing

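For the 9 tested member probe sets, 215 of 216 values under the alternatives kept their sign, and none passed the adjusted threshold, the smallest adjusted p being 0.276. The exception was SLN, which ran from -0.601 to 0.104 with 1 animal left out and turned positive without saline replicate 2. The count of all probe sets past the threshold was 0, also at an adjusted p of 0.10, and 0 to 1 with 1 animal left out (1 without saline replicate 5). The within-array log2 ratio of ATP2A2 to PLN went from -0.0787 to 0.125 with the mean of all tested probe sets per gene, and to 0.0573 with the other PLN probe set, an alternative chosen after seeing the data. With the replicate block, CAMK2D was at 0.37 and SLC8A1 at 1.14, and no call changed. Replicate numbers gave no sign of a pairing of the animals. After each group mean was taken out, same-numbered arrays correlated at -0.266 to 0.237, with 1 of 6 pairs above 0.1. With 1 animal left out, the list medians ran from -0.03 to 0.13 for kinases and cyclic AMP, -0.41 to -0.23 for SERCA2-binding proteins, 0.04 to 0.11 for phosphatases, -0.17 to -0.01 for pumps and -0.34 to -0.08 for mitochondrial genes. Array weights took the dimmest tested ATP2A2 set from 0.34 to 0.51.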

Other observations

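Of the 17 pairs of member probe sets outside the 19 above, added after seeing the data, 3 had an adjusted permutation p under 0.05 by r. PLN probe set Ssc.5227.1.S1_at correlated with CAMK2D at r = 0.802 (rho = 0.633, adjusted permutation p of 0.0191 for r and 0.102 for rho). With the brightest ATP2A2 probe set it was at r = 0.777 (rho = 0.438, adjusted permutation p of 0.0308 and 0.285). Without stem cells replicates 3 and 6 these were 0.5005 and 0.0777. For the third pair, given next, the adjusted permutation p of rho was 0.102. SLC8A1 correlated with the dimmest tested ATP2A2 probe set, Ssc.22641.1.S1_at, at r = 0.748 (rho = 0.692; permutation p of 0.00225, adjusted 0.0191), and at 0.738 without stem cells replicate 3 and saline replicate 3, whereas with the brightest ATP2A2 probe set it was at 0.448 (rho = 0.309; permutation p of 0.123, adjusted 0.167 over 19 pairs). The 2 probe sets of the former pair are dim and both had negative correlations with the 3' to 5' control ratio, at -0.801 and -0.613.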
